A study of Mus musculus with 24 samples.

Results

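Blood-brain barrier transporters were followed in the left brain hemisphere of mice given lipopolysaccharide (LPS), a bacterial cell wall lipid that sets off inflammation, or saline. The 9 genes are Slc2a1, Slc16a1, Mfsd2a, Slc7a5, Slc3a2, Slco1c1, Slco1a4, Abcb1a and Abcg2. They were listed by symbol as carriers and efflux pumps of the brain endothelium, with earlier results of these data known. Their Ensembl identifiers were matched to 9 of the 55421 rows of the count table. All 9 passed the filter on low counts, which left 14380 genes to test.

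The series holds 24 libraries of 3′ tags, each from the left hemisphere of 1 mouse of 3 months. The groups were Nox2 knockout mice given LPS, Nox2 knockout mice given phosphate-buffered saline (PBS), wild type mice given LPS and wild type mice given PBS, with 6 animals each. All animals carry the strain label C57BL/6J. Either 100 µl of LPS, at 1 µg per g body weight per day, or 100 µl of PBS was injected into the abdomen on each of 4 days running. Nox2, encoded by Cybb, is the electron-carrying subunit of an oxidase that phagocytes use to make superoxide. The labels name the genotype as a whole-animal property and give neither the allele nor a time between the last injection and tissue collection.

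Endothelial cells of brain capillaries are sealed by tight junctions, so most nutrients enter the brain only through carriers in their membranes. Solute carriers bring in glucose, lactate, amino acids, lipids and thyroid hormone, while ATP-driven pumps return many drugs and lipophilic compounds to the blood. Several of these proteins are also made outside the endothelium, among them Slc2a1 and Slco1c1 in astrocytes or the choroid plexus, Slc3a2 in many dividing or activated cells, and Slc16a1 in oligodendrocytes and other glia.

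Promoter windows are shown for the 3 transporters that were lower in knockout than in wild type libraries after LPS, Slc2a1, Slc16a1 and Abcb1a, and for Mfsd2a, the transporter that LPS left uncalled in both genotypes. Each window runs from 250 bases before to 50 after a RefSeq transcript start on GRCm38.p6, 5′ to 3′ on the gene's strand. Capitals mark ACGTG, the core of hypoxia response elements, and CTTTG, the core bound by the TCF and LEF factors of Wnt signalling, read on either strand. The Slc2a1 window lies at chr4:119108495-119108794 on the plus strand and the Slc16a1 window at chr3:104638414-104638713 on the plus strand. The Mfsd2a window lies at chr4:122961139-122961438 on the minus strand and the Abcb1a window at chr5:8566841-8567140 on the plus strand. The Abcb1a window ends far upstream of the gene's start in GENCODE M21, at 8660077, and does not overlap the gene as annotated there. The windows of Slc2a1, Slc16a1 and Mfsd2a each overlap their gene.
Slc2a1: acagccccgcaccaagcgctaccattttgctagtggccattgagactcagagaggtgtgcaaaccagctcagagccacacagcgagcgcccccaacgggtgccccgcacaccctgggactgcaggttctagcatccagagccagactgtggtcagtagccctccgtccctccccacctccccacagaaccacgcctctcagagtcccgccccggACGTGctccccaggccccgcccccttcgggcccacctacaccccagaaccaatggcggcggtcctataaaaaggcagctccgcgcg
Slc16a1: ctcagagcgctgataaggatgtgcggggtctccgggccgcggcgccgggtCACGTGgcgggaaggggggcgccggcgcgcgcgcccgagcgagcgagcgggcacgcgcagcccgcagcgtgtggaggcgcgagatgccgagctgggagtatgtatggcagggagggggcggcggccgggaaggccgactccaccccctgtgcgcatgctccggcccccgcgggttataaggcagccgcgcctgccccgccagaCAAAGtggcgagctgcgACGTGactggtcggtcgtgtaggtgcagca
Abcb1a: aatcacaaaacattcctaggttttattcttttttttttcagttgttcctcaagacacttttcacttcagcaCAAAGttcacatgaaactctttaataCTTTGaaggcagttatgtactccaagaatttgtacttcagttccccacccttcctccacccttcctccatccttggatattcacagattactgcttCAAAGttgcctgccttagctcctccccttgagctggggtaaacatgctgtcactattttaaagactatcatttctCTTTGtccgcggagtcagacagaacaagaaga
Mfsd2a: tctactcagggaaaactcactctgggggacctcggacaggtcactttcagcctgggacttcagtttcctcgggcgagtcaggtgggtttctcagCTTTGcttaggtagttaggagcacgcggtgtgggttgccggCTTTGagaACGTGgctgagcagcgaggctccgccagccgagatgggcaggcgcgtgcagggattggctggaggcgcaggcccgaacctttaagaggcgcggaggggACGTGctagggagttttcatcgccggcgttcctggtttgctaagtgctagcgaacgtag

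RefSeq windows were matched for 8 of the 9 genes, with Abcg2 holding 3 alternative starts; Slc7a5 is named only. ACGTG stood in 5 of these 10 windows, against 19.6% of all 32851 promoter windows. CTTTG stood in 7 of the 10, the distant Abcb1a window among them, against 53.9% of all windows. A loose form of the κB site, GGG and CC with 5 free bases between them, stood in 4 of the 10, against 50.8% of all windows, and TTCNNNGAA, the STAT core, in 0 of the 10, against 8.30%. CACGTG reads as ACGTG on both strands and was counted on each. These matches describe the letters in 300 bases and say nothing of binding.

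Libraries held 2340184 to 5256169 counts. Levels are given as counts per 1000000 counts (CPM), scaled by the trimmed mean of M values (TMM). They are comparable between libraries for a gene. Cybb read 72.0 ± 4.04 CPM in knockout LPS libraries, 67.8 ± 5.18 in knockout PBS libraries, 24.7 ± 8.06 in wild type LPS libraries and 1.49 ± 0.653 in wild type PBS libraries (SD, n = 6 each). Tags of the targeted gene were therefore more frequent in the libraries labelled knockout. A 3′ tag outside the altered part of a gene does not check the deletion, so every genotype direction here rests on the labels. Wild type LPS replicates 1 and 2 stood apart from the other 4 of their group, with 15.7 CPM of Cybb each against 23.7 to 34.0, and 5.07 and 5.39% of counts from mitochondrial ribosomal RNA against 3.39 to 3.596%. All 7 neuronal and all 15 endothelial marker genes listed were detected and tested in these hemispheres.

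**Figure D1:**
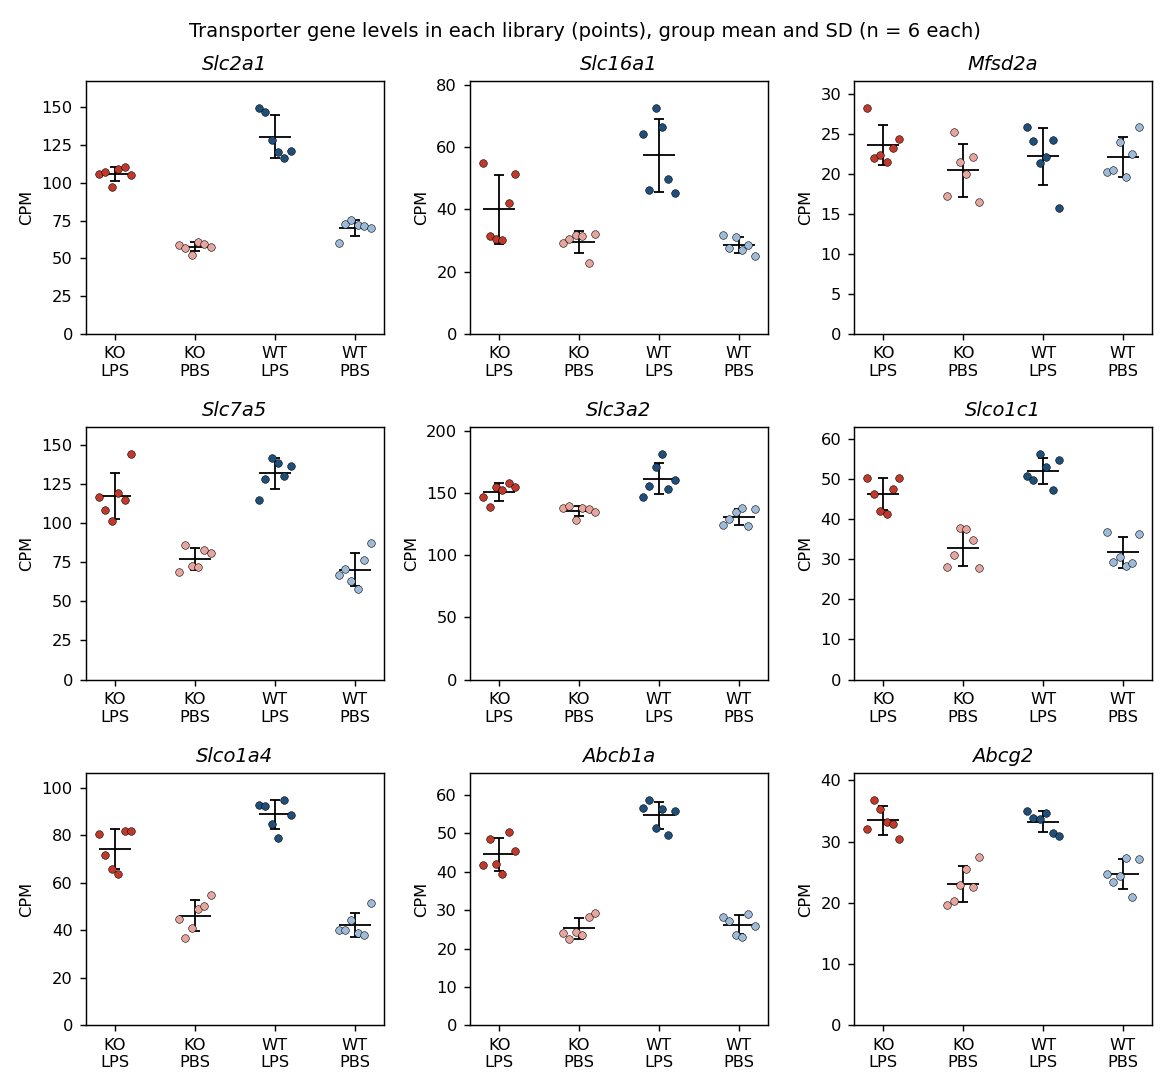
Level of each of the 9 transporters in CPM (TMM-scaled, linear axes) in every library (points), with the mean and SD of each group of 6. LPS libraries lie above PBS libraries of the same genotype without overlap for 6 genes in knockout and 8 in wild type, while the 4 groups of Mfsd2a overlap.

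Of the 9 transporters, 8 rose with LPS in knockout mice and the same 8 in wild type mice, and none fell, where 3.82% of all genes were called lower in knockout and 7.12% in wild type. Mfsd2a was not called in either genotype. With single libraries left out, the number called higher ran from 6 to 8 in knockout and stayed at 8 in wild type. Among all genes tested, 7.05% were called higher with LPS in knockout and 10.9% in wild type, by edgeR's quasi-likelihood test at an adjusted p under 0.05. The median log2 fold change of the 9 genes was 0.54 in knockout, against −0.0015 over all genes, and 0.89 in wild type, against −0.0088 over all genes. In knockout, LPS and PBS libraries did not overlap for 6 of the 8 called genes, against 5.95% of all genes. In wild type they were apart for all 8, against 7.94% of all genes.

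Slc2a1 (ENSMUSG00000028645, chr4:119108711-119137983, plus strand, GRCm38) encodes GLUT1, the glucose carrier of the barrier. In knockout mice its lowest, median and highest levels were 97.2, 107 and 111 CPM with LPS, against 52.4, 58.3 and 61.1 CPM with PBS. In wild type mice they were 117, 125 and 149.6 CPM with LPS, against 60.2, 71.7 and 75.2 CPM with PBS. Every LPS library lay above every PBS library of its genotype. The 3 levels of each group are given in the same order for the other genes. The log2 fold change was 0.87 ± 0.07 (SE, adjusted p = 3.6e-14, edgeR) in knockout and 0.89 ± 0.06 (adjusted p = 2.41e-15) in wild type. In bulk tissue a change in the number of cells of a type and a change in RNA per cell cannot be told apart, for this and every following gene.

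Slc16a1 (ENSMUSG00000032902, chr3:104638668-104658462, plus strand) encodes MCT1, which carries lactate and ketone bodies. Knockout libraries read 29.97, 36.6 and 54.7 CPM (lowest, median, highest) with LPS, against 22.6, 31.0 and 31.9 CPM with PBS. Wild type libraries read 45.2, 57.0 and 72.5 CPM with LPS, against 25.1, 28.0 and 31.7 CPM with PBS. In knockout 3 LPS libraries, at 29.97, 30.5 and 31.4 CPM, lay within the PBS range, whereas the groups were apart in wild type. Slc16a1 rose by 0.45 ± 0.13 on the log2 scale (SE, adjusted p = 0.0167, edgeR) in knockout and by 1.01 ± 0.12 (adjusted p = 1.58e-08) in wild type. The knockout call was lost without knockout LPS replicate 1 (adjusted p = 0.119, edgeR), LPS replicate 6 (0.0819) or PBS replicate 5 (0.0618). Its SD was 11.1 CPM in knockout LPS libraries, against 3.56 CPM in knockout PBS libraries, and 11.7 CPM in wild type LPS libraries, against 2.52 CPM in wild type PBS libraries. The predicted genes Gm43581 and Gm43585 overlap it on the same strand and held 332 counts over all libraries, so reads may be shared. Bsg (basigin), which escorts MCT1 to the cell surface, rose by 0.37 ± 0.05 in knockout (adjusted p = 1.36e-07) and 0.53 ± 0.05 in wild type (adjusted p = 7.95e-12). Slc16a3, a lactate exporter of glycolytic cells, stood at 0.70 ± 0.25 in knockout (adjusted p = 0.0676) and rose by 1.08 ± 0.23 in wild type (adjusted p = 0.000397). Slc16a7, the neuronal monocarboxylate carrier MCT2, went the other way, at −0.38 ± 0.14 in knockout (adjusted p = 0.0632), and fell in wild type (−0.37 ± 0.13, adjusted p = 0.0399). Emb (embigin), an escort of MCT2, was not called, at −0.08 ± 0.09 in knockout (adjusted p = 0.691) and −0.08 ± 0.09 in wild type (adjusted p = 0.598).

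Mfsd2a (ENSMUSG00000028655, chr4:122946850-122961188, minus strand) carries docosahexaenoic acid into the brain as lysophosphatidylcholine and restrains vesicular transport across the endothelium. In knockout it read 21.5, 22.9 and 28.3 CPM with LPS, against 16.5, 20.8 and 25.3 CPM with PBS. It read 15.8, 23.1 and 25.9 CPM in wild type LPS libraries, against 19.6, 21.5 and 26.0 CPM in wild type PBS libraries. The groups overlapped in both genotypes. Its log2 fold change with LPS was 0.20 ± 0.11 in knockout (SE, adjusted p = 0.286, edgeR; 95% interval −0.02 to 0.43) and 0.02 ± 0.11 in wild type (adjusted p = 0.952; interval −0.21 to 0.24). Fabp5, a fatty acid binding protein of brain endothelium, differed by −0.13 ± 0.10 in knockout (adjusted p = 0.477) and −0.16 ± 0.09 in wild type (adjusted p = 0.263). Mfsd2b, its nearest relative, gave 0 to 8 counts a library and was not tested.

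Slc7a5 (ENSMUSG00000040010, chr8:121881150-121907694, minus strand) is LAT1, the light chain that carries large neutral amino acids, L-DOPA and thyroid hormones. Knockout libraries read 101, 116 and 144 CPM with LPS, against 68.5, 76.7 and 85.8 CPM with PBS. It read 115, 134 and 142 CPM in wild type LPS libraries, against 57.7, 68.8 and 87.0 CPM in wild type PBS libraries. Neither genotype showed overlap. The log2 fold change was 0.61 ± 0.08 (SE, adjusted p = 6.53e-08, edgeR) in knockout and 0.93 ± 0.08 (adjusted p = 3.28e-13) in wild type. Slc7a8, the related light chain LAT2, was not called, at 0.03 ± 0.08 in knockout (adjusted p = 0.89) and 0.21 ± 0.08 in wild type (adjusted p = 0.0692).

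Slc3a2 (ENSMUSG00000010095, chr19:8706882-8723369, minus strand) is CD98hc, the heavy chain that LAT1 and several other carriers need at the membrane. In knockout it read 139, 154 and 158 CPM with LPS, against 128, 138 and 139 CPM with PBS. It read 147, 158 and 182 CPM in wild type LPS libraries, against 123, 132 and 138 CPM in wild type PBS libraries. The lowest knockout LPS library overlapped the PBS range, and the wild type groups were apart. Its log2 fold change was 0.15 ± 0.05 in knockout (SE, adjusted p = 0.0434, edgeR) and 0.31 ± 0.05 in wild type (adjusted p = 9.83e-06). The knockout call was kept in 2 of 12 fits that left out 1 library.

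Because the LAT1 transporter is a heterodimer, the ratio of Slc7a5 to Slc3a2 tags was followed too. In knockout its lowest, median and highest values were 0.652, 0.782 and 0.93 with LPS, against 0.496, 0.584 and 0.616 with PBS. In wild type they were 0.761, 0.826 and 0.852 with LPS, against 0.418, 0.543 and 0.634 with PBS. LPS libraries lay above PBS libraries in both genotypes. The ratio is one of tags, not of protein, and its difference was not tested.

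Slco1c1 (ENSMUSG00000030235, chr6:141524368-141570177, plus strand) encodes OATP1C1, a thyroxine carrier. Its knockout levels were 41.2, 46.9 and 50.2 CPM with LPS, against 27.8, 32.9 and 37.7 CPM with PBS. It read 47.3, 51.8 and 56.2 CPM in wild type LPS libraries, against 28.4, 29.9 and 36.7 CPM in wild type PBS libraries. No library overlapped between injections within a genotype. The log2 fold change was 0.49 ± 0.08 in knockout (SE, adjusted p = 3.19e-05, edgeR) and 0.73 ± 0.08 in wild type (adjusted p = 2.22e-09).

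Slco1a4 (ENSMUSG00000030237, chr6:141805440-141856199, minus strand) encodes OATP1A4, an organic anion carrier. Levels in knockout were 63.5, 76.3 and 82.0 CPM with LPS, against 36.9, 47.0 and 55.0 CPM with PBS. It read 78.9, 90.4 and 94.97 CPM in wild type LPS libraries, against 37.8, 40.2 and 51.5 CPM in wild type PBS libraries. The groups were apart in both genotypes. Slco1a4 rose by 0.69 ± 0.08 on the log2 scale in knockout (SE, adjusted p = 1.68e-08, edgeR) and by 1.09 ± 0.08 in wild type (adjusted p = 1.59e-14). Its close relatives Slco1a5 and Slco1a6 gave 0 to 3 counts a library, and how reads that match several of them were counted is not given, so its value is uncertain to that extent.

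Abcb1a (ENSMUSG00000040584, chr5:8660077-8748575, plus strand) encodes P-glycoprotein, an efflux pump for many drugs. In knockout it read 39.4, 43.7 and 50.3 CPM with LPS, against 22.4, 24.2 and 29.2 CPM with PBS. It read 49.5, 56.1 and 58.8 CPM in wild type LPS libraries, against 22.95, 26.6 and 29.0 CPM in wild type PBS libraries. The groups did not overlap. Its log2 fold change was 0.82 ± 0.08 in knockout (SE, adjusted p = 2.46e-10, edgeR) and 1.07 ± 0.08 in wild type (adjusted p = 1.21e-14). Its near-identical paralog Abcb1b summed to 80 counts in the 6 knockout LPS libraries, against 69 in the 6 knockout PBS libraries, and was not called (0.22 ± 0.27, adjusted p = 0.72). In wild type, Abcb1b summed to 89 counts with LPS, against 44 with PBS, and rose by 1.15 ± 0.29 (adjusted p = 0.00322). Reads may be split between the pair.

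Abcg2 (ENSMUSG00000029802, chr6:58584523-58695676, plus strand) encodes BCRP, another efflux pump of the barrier. Levels in knockout were 30.4, 33.1 and 36.9 CPM with LPS, against 19.7, 22.8 and 27.5 CPM with PBS. It read 31.0, 33.8 and 35.0 CPM in wild type LPS libraries, against 21.05, 24.6 and 27.4 CPM in wild type PBS libraries. LPS and PBS libraries were apart in both genotypes. Abcg2 rose by 0.54 ± 0.09 in knockout (SE, adjusted p = 8.23e-06, edgeR) and 0.43 ± 0.09 in wild type (adjusted p = 0.000141). A list of 8 xenobiotic receptors and receptor targets held 5 tested genes. Of these, 2 rose in knockout and 3 in wild type (medians 0.50 and 0.77), where 7.05% of all genes rose in knockout and 10.9% in wild type. Any link of these genes to the pumps was not tested.

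**Figure D2:**
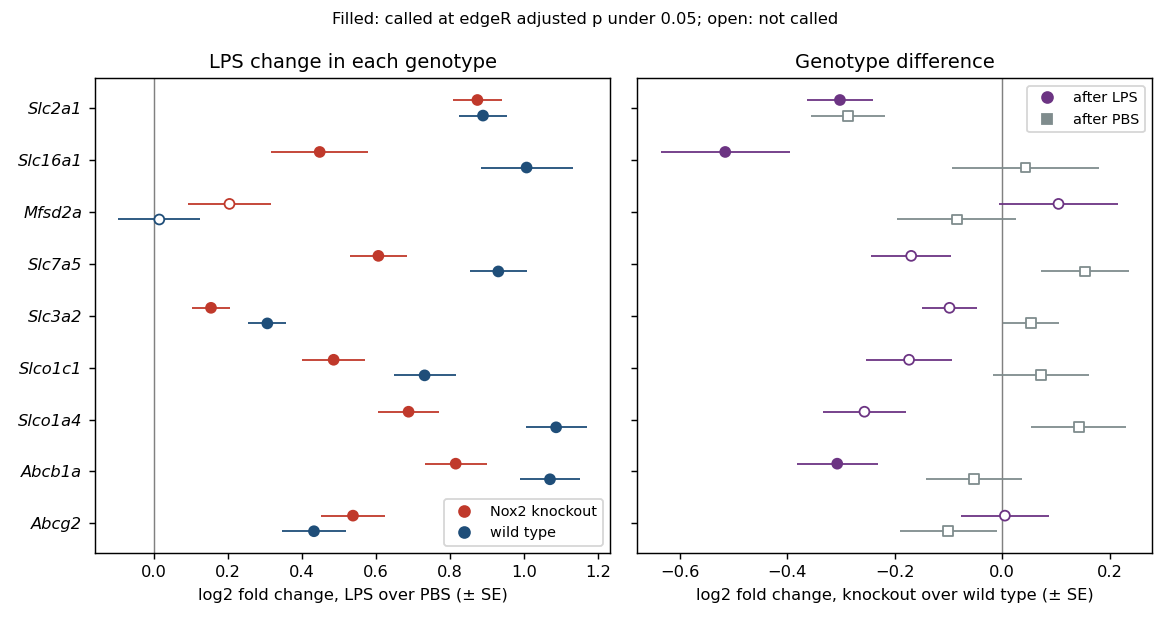
Log2 fold change (± SE, edgeR) of each transporter with LPS in each genotype, left, and between genotypes after each injection, right; filled points are called at an adjusted p under 0.05. Mfsd2a is open in both LPS comparisons, and only Slc2a1, Slc16a1 and Abcb1a are filled between genotypes, all after LPS and below 0.

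After PBS, none of the 9 transporters was called different between knockout and wild type mice, where 0.132% of all genes were. The ranges of all 9 overlapped between genotypes, against 0.417% of all genes whose ranges did not. DESeq2 also called 0, and 1 of the 9 had an unadjusted p under 0.05 in edgeR, against 8.73% of all genes. That gene was Slc2a1, at 57.7 ± 2.97 CPM in knockout PBS libraries and 70.3 ± 5.26 CPM in wild type PBS libraries (SD, n = 6 each). Its log2 difference was −0.29 ± 0.07 (SE, adjusted p = 0.0719, edgeR). All 6 knockout libraries lay below the wild type mean, though the highest, at 61.1 CPM, passed the lowest wild type library, at 60.2 CPM. Without that wild type library, replicate 1, the adjusted p was 0.0225.

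After LPS, Slc2a1, Slc16a1 and Abcb1a were lower in knockout than in wild type mice, 3 of the 9 transporters where 0.786% of all genes were called lower. None was higher, where 0.264% of all genes were. Slc2a1 averaged 106 ± 4.79 CPM in knockout LPS libraries and 131 ± 14.3 CPM in wild type LPS libraries (SD, n = 6 each), with no overlap, as in 0.647% of all genes. Its log2 difference was −0.30 ± 0.06 (SE, adjusted p = 0.00504, edgeR). Slc16a1 averaged 40.0 ± 11.1 CPM in knockout and 57.4 ± 11.7 CPM in wild type LPS libraries, a log2 difference of −0.52 ± 0.12 (adjusted p = 0.018). Abcb1a averaged 44.6 ± 4.25 CPM in knockout and 54.8 ± 3.51 CPM in wild type LPS libraries, a log2 difference of −0.31 ± 0.08 (adjusted p = 0.0272). The ranges of the last 2 genes overlapped, although all 6 knockout libraries lay below the wild type mean for each.

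Both wild type LPS libraries that stood apart held the highest Slc2a1 of their group, at 149.6 and 147 CPM, against 117 to 129 CPM in the other 4. Without them the difference of Slc2a1 was −0.20 (adjusted p = 0.0487, edgeR), that of Slc16a1 −0.55 (0.00696) and that of Abcb1a −0.27 (0.0578). Leaving out single libraries gave 1 to 3 called genes, with 1 without knockout LPS replicate 3, knockout LPS replicate 4 or wild type LPS replicate 4. Slc2a1 kept its call in all 12 such fits, and Slc16a1 and Abcb1a in 7 of 12 each, with highest adjusted p of 0.0962 and 0.0869. The other 6 transporters were not called. Slco1a4 differed by −0.26 ± 0.08 (adjusted p = 0.101), Slc7a5 by −0.17 ± 0.07 (0.345) and Slco1c1 by −0.17 ± 0.08 (0.386). Abcg2 stood at 0.00 ± 0.08 (adjusted p = 0.994; 95% interval −0.16 to 0.17).

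**Figure D3:**
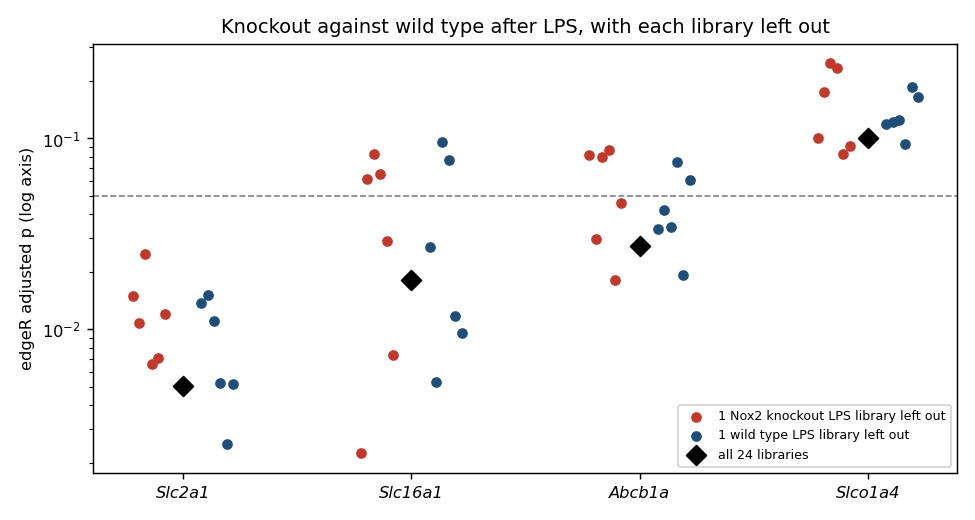
Adjusted p (log axis) of Slc2a1, Slc16a1, Abcb1a and Slco1a4 in knockout against wild type mice after LPS, with all 24 libraries (diamonds) and with 1 LPS library left out (points); the dashed line marks 0.05. Every point of Slc2a1 lies under the line, 7 of 12 points do so for Slc16a1 and for Abcb1a, and none for Slco1a4.

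Whether LPS moved a transporter differently in the 2 genotypes was tested directly, as the LPS change in knockout minus that in wild type. None of the 9 was called, where 0.00695% of all genes were, and adjusted p-values ran from 0.268 to 0.979 (edgeR). DESeq2 also called 0, with no adjusted p for 6 of the 9. Point estimates were negative for 7 of the 9, and 6 had an unadjusted p under 0.05, against 9.78% of all genes. Among them were Slc16a1 at −0.56 ± 0.18 (adjusted p = 0.293), Slco1a4 at −0.40 ± 0.12 (0.268) and Slc7a5 at −0.32 ± 0.11 (0.303). For Slc2a1 the difference was −0.02 ± 0.09, with a 95% interval of −0.20 to 0.17. The comparisons after LPS, after PBS and between LPS changes use the same libraries and are not independent.

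Most endothelial marker genes rose with LPS, as most transporters did. Of 15 genes listed as endothelial identity genes, 12 rose with LPS in knockout (median log2 fold change 0.74) and 14 in wild type (median 1.19), where 7.05% of all genes rose in knockout and 10.9% in wild type. Cldn5, a tight junction protein, rose by 1.65 ± 0.13 in knockout (SE, adjusted p = 1.01e-13, edgeR) and by 2.17 ± 0.13 in wild type (adjusted p = 3.23e-18). Pecam1, an adhesion molecule of endothelial contacts, rose by 1.52 ± 0.11 in knockout (adjusted p = 3.08e-14) and 1.74 ± 0.11 in wild type (adjusted p = 2.32e-17). The rise differed widely within the list. Flt1 rose by only 0.29 ± 0.07 in knockout (adjusted p = 0.00177) and 0.25 ± 0.07 in wild type (adjusted p = 0.0042). Tjp1 was called in neither genotype, and Tek and Ocln were not called in knockout. In knockout against wild type after LPS, 5 of the 15 were lower, against 0.786% of all genes. Among them were Esam, an adhesion molecule of tight junctions, at −0.51 ± 0.08 (adjusted p = 0.000195) and Eng, a TGF-β co-receptor, at −0.39 ± 0.09 (adjusted p = 0.0233).

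The 15 genes summed to 580 to 671 CPM in knockout LPS libraries, against 307 to 381 CPM in knockout PBS libraries. In wild type they summed to 663 to 815 CPM with LPS, against 337 to 391 CPM with PBS. The log2 change of the sum was 0.80 in knockout and 1.08 in wild type. Flt1 made up 20.7% of the summed level in knockout LPS libraries, against 29.2% in knockout PBS libraries, and 16.96% in wild type LPS libraries, against 29.8% in wild type PBS libraries. Cldn5 made up 17.7% in knockout LPS libraries, against 9.83% in knockout PBS libraries, and 19.4% in wild type LPS libraries, against 9.22% in wild type PBS libraries, so the make-up of the sum differed between injections. Divided by this sum, 7 transporters were lower and 2 higher with LPS in knockout, and 8 were lower and 1 higher in wild type. A gene that LPS left unchanged would fall in this ratio by about the change of the sum. The median log2 fold change over all genes was −0.0015 in knockout and −0.0088 in wild type. Shares of all genes lower or apart in this ratio were not computed, so these counts and those below are no result about the transporters. LPS and PBS libraries did not overlap for Mfsd2a (−0.58 on the log2 scale) and Slc3a2 (−0.64) in knockout. They did not overlap in wild type for Mfsd2a (−1.08), Slc3a2 (−0.78), Abcg2 (−0.64) and Slco1c1 (−0.36). Slc2a1, Slco1a4 and Abcb1a overlapped in both genotypes, with ratios changed by 0.08, −0.11 and 0.02 in knockout and by −0.19, 0.0021 and −0.01 in wild type.

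Between knockout and wild type after LPS, the groups overlapped for every transporter when divided by the endothelial sum. Slc2a1 stood at 0.0021 on the log2 scale, Abcb1a at −0.0013 and Slc16a1 at −0.24, with 7 of the 9 above 0 and 2 below. The sum itself differed by −0.30 in knockout against wild type after LPS, so a gene equal in both genotypes would stand above 0 by about as much. The share of all genes above 0 was not computed, so this count is no result about the transporters. These ratios are a description without a test, and the part of the endothelial genes in the changes of the transporters was not tested.

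**Figure D4:**
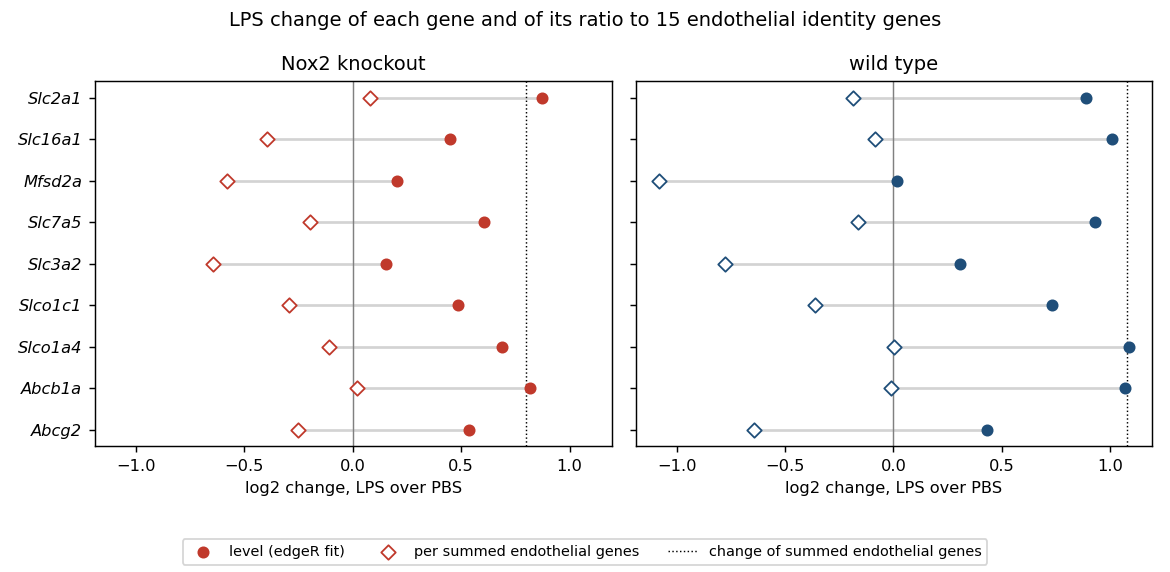
Log2 change with LPS of each transporter (filled circles, edgeR) and of its level divided by the summed 15 endothelial identity genes (open diamonds), in knockout, left, and wild type, right; the dotted line marks the change of the sum. The diamonds of Mfsd2a lie at −0.58 in knockout and −1.08 in wild type, while those of Abcb1a lie at 0.02 and −0.01. The diamond of a gene unchanged by LPS would lie about as far below 0 as the dotted line lies above it.

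Further carriers and pumps of the barrier, 24 genes of which 21 were tested, held 9 that rose in knockout and 11 in wild type (medians 0.33 and 0.34), with none lower, where 7.05% of all genes rose in knockout and 10.9% in wild type. Slc38a5, a glutamine carrier, rose by 1.48 ± 0.30 in knockout (SE, adjusted p = 0.000296, edgeR) and 1.84 ± 0.25 in wild type (adjusted p = 2.14e-07). Slco2b1, an organic anion carrier, rose by 1.25 ± 0.13 in knockout (adjusted p = 2.47e-10) and 1.35 ± 0.12 in wild type (adjusted p = 1.14e-12). It was the 1 gene of the 21 that was lower in knockout against wild type after LPS (−0.40 ± 0.11, adjusted p = 0.0494), where 0.786% of all genes were. Of 7 caveolar and transcytosis genes, 3 rose in knockout and 4 in wild type (medians 0.27 and 0.28), against the same shares of all genes. Cav1, the caveolar coat protein, rose by 0.89 ± 0.15 in knockout (adjusted p = 1.61e-05) and 1.261 ± 0.14 in wild type (adjusted p = 1.33e-09).

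Wnt signalling sustains the barrier programme, and of 19 tested genes on that list 5 rose and 1 fell in knockout and 8 rose in wild type (medians 0.11 and 0.14). Among all genes, 7.05% rose and 3.82% fell in knockout, and 10.9% rose and 7.12% fell in wild type. The gene that fell in knockout was Wnt7b, a ligand of the programme (−0.39 ± 0.12, adjusted p = 0.017), named after its value was seen. Apcdd1, a Wnt target and inhibitor, rose by 1.256 ± 0.12 in knockout (SE, adjusted p = 3.34e-11, edgeR) and 1.79 ± 0.12 in wild type (adjusted p = 1.03e-16), and was lower in knockout against wild type after LPS (−0.41 ± 0.10, adjusted p = 0.0272). Among 8 tested thyroid hormone genes, 1 fell in knockout, and 3 rose and 3 fell in wild type (medians 0.0096 and −0.09), against the same shares of all genes. Dio2, the astrocytic deiodinase that activates thyroxine, changed by −0.60 ± 0.09 in knockout (adjusted p = 2.22e-06) and −0.92 ± 0.09 in wild type (adjusted p = 5.46e-11), while the thyroxine carrier Slco1c1 rose in both.

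The amino acid response is a stress programme under ATF4 that counts Slc7a5 and Slc3a2 among its known targets. Of its 11 tested genes, 1 rose and 1 fell in knockout, and 1 rose and 2 fell in wild type (medians 4.7e-05 and −0.05), against 7.05% higher and 3.82% lower among all genes in knockout and 10.9% higher and 7.12% lower in wild type. Counts this small are close to those shares and are no result about the list. Slc7a11, the cystine-carrying light chain of Slc3a2, rose by 0.51 ± 0.10 (SE, adjusted p = 0.000143, edgeR) in knockout and 0.67 ± 0.10 (adjusted p = 4.2e-07) in wild type. Asns, asparagine synthetase, stood at −0.18 ± 0.09 in knockout (adjusted p = 0.216) and fell in wild type (−0.29 ± 0.09, adjusted p = 0.0163).

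Among 12 tested glycolysis and hypoxia genes, 3 rose in knockout, and 3 rose and 1 fell in wild type (medians 0.07 and 0.11), against 7.05% higher and 3.82% lower among all genes in knockout and 10.9% higher and 7.12% lower in wild type. Hk2, which phosphorylates imported glucose, rose by 1.01 ± 0.15 in knockout (SE, adjusted p = 2.95e-06, edgeR) and 1.13 ± 0.15 in wild type (adjusted p = 4.51e-08). Slc2a3, the neuronal glucose carrier, was not called in either genotype, at −0.06 ± 0.06 in knockout (adjusted p = 0.681) and −0.11 ± 0.06 in wild type (adjusted p = 0.214).

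Markers of the other cells in the hemisphere were counted too, and most of those of microglia, the resident macrophages of the brain, also rose with LPS. Of 6 microglial genes, 5 rose in each genotype, against 7.05% of all genes in knockout and 10.9% in wild type. The medians of the 6 were 0.86 in knockout and 1.117 in wild type. The 6 genes summed to 316 to 427 CPM in knockout LPS libraries, against 179 to 207 CPM in knockout PBS libraries. In wild type they summed to 375 to 485 CPM with LPS, against 182 to 227 CPM with PBS, so LPS and PBS libraries were apart in both genotypes. In knockout against wild type after LPS, 1 of the 6 was lower, against 0.786% of all genes. It was Cx3cr1, the fractalkine receptor (−0.41 ± 0.09, adjusted p = 0.00934, edgeR).

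Of 7 neuronal genes, 2 fell in knockout and 4 in wild type, where 3.82% of all genes fell in knockout and 7.12% in wild type. The 7 genes summed to 4580 to 4915 CPM in knockout LPS libraries, against 5131 to 5445 CPM in knockout PBS libraries. In wild type they summed to 4435 to 4701 CPM with LPS, against 5148 to 5431 CPM with PBS. Genes of pericytes and smooth muscle, taken as 1 list, held 5 higher of 8 tested in each genotype, though not the same 5. Among all genes, 7.05% rose in knockout and 10.9% in wild type. The pericyte genes Rgs5, Cspg4 and Vtn and the smooth muscle gene Acta2 rose in both. Myh11, another smooth muscle gene, rose in knockout (1.14 ± 0.26, adjusted p = 0.0012) and Pdgfrb, a pericyte receptor, in wild type (0.50 ± 0.12, adjusted p = 0.0019). In knockout against wild type after LPS, Rgs5 (−0.32 ± 0.07, adjusted p = 0.00834) and Vtn (−0.33 ± 0.08, adjusted p = 0.0207) were lower, where 0.786% of all genes were.

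Higher levels were also found for astrocyte genes in 4 of 8 in knockout and in 5 of 8, with 1 lower, in wild type. Choroid plexus genes summed to 1023 to 1130 CPM in knockout LPS libraries, against 1016 to 1146 CPM in knockout PBS libraries. In wild type they summed to 679 to 1085 CPM with LPS, against 864 to 1086 CPM with PBS, so the sums overlapped in both genotypes. With LPS, none of the 9 choroid plexus genes was called in knockout. In wild type Kl fell (−0.88 ± 0.23, SE, adjusted p = 0.00394, edgeR) and Clic6 rose (0.48 ± 0.13, adjusted p = 0.00711). After LPS, 1 of the 9, Ttr, was higher in knockout than in wild type (0.33 ± 0.07, adjusted p = 0.00934), against 0.264% of all genes. Oligodendrocyte genes held 2 higher and 3 lower of 7 in each genotype. Genes of ependyma were higher in 0 of 5 in knockout and 1 of 5 in wild type. Those of meninges and fibroblasts were higher in 2 of 7 in knockout and 1 of 7 in wild type. Among all genes, 7.05% rose and 3.82% fell in knockout, and 10.9% rose and 7.12% fell in wild type. Counts as small as those for ependyma, meninges and fibroblasts are no result about those lists. The 7 meninges and fibroblast genes nevertheless summed to 157 to 220 CPM in knockout LPS libraries, against 95.6 to 139 CPM in knockout PBS libraries. In wild type they summed to 188 to 221 CPM with LPS, against 133 to 153 CPM with PBS, so these sums were apart in both genotypes. Sums of the ependyma genes overlapped in both. The part of any of these cells in the transporter values was not tested.

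**Figure D5:**
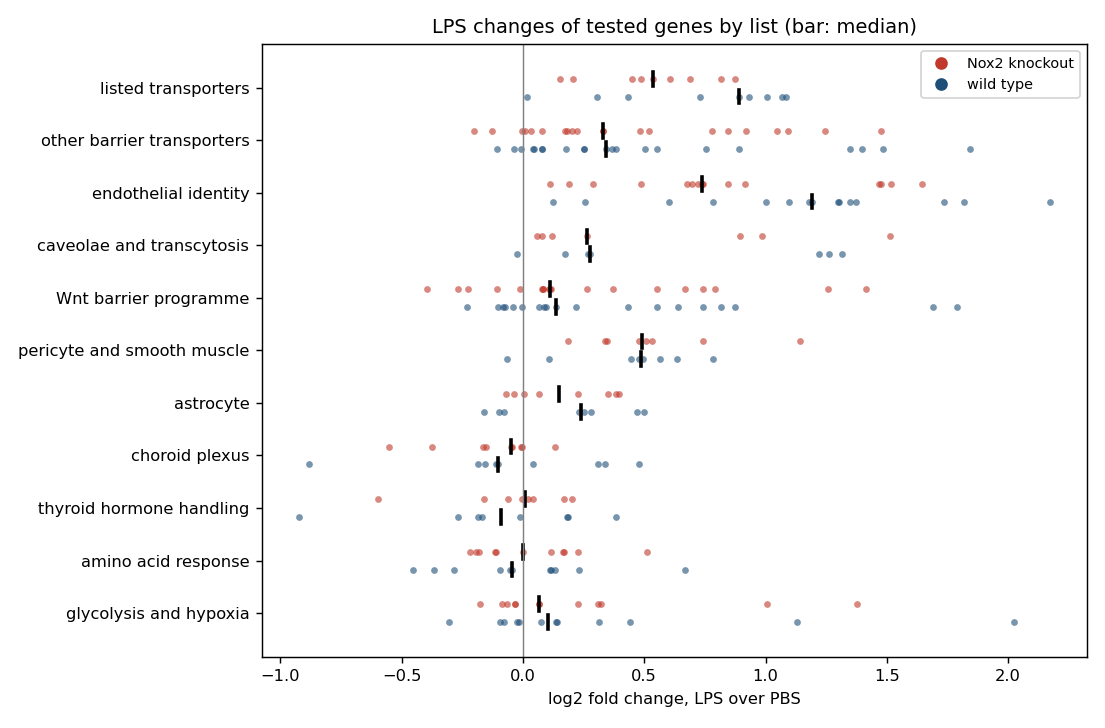
Log2 fold change with LPS (edgeR) of every tested gene (points) on 11 lists, with knockout above wild type in each pair and bars at the medians. The medians of the listed transporters are 0.54 in knockout and 0.89 in wild type, and those of endothelial identity genes 0.74 and 1.19.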

How the data were processed

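The deposited table holds whole-number counts of QuantSeq 3′ tags per Ensembl gene, made by the authors. The submitters' processing notes list STAR 2.7.3a, Subread 2.0.0 with featureCounts, bcl2fastq, DESeq2 1.26.0, R 3.6.1 and mm10 (GRCm38). How strand, multi-mapping and duplicates were treated is not given in the sources used here, so values of overlapping or near-identical genes are uncertain. Positions come from GENCODE M21 and promoter windows from RefSeq (GRCm38.p6).

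All 24 libraries (2340184 to 5256169 counts) entered 1 quasi-likelihood fit in edgeR 4.0.16 under R 4.3.3, with group means, TMM scaling and a residual df of 20. Filtering with filterByExpr, at a minimum count of 10, kept 14380 genes and left out 41041. Genes were called at a Benjamini-Hochberg adjusted p under 0.05, taken over the 14380 genes in each comparison. The script was tested on simulated counts that held the same LPS change in both genotypes and no difference between genotypes. That test does not measure how often a true genotype difference, or a difference of LPS changes, would be missed. SE are from this fit, SD over 6 libraries. No batch is labelled, and no 2 libraries agreed within sampling noise. The labels give 6 animals a group.

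Members and lists were chosen with earlier results of these data known. The text may name, from other lists, the 3 genes of smallest p in the comparison described, sister transporters and all genes of lists of up to 6. Flt1, Tjp1, Tek, Ocln, Wnt7b and the smooth muscle and pericyte genes outside that rule were named after their values were seen. For each member, the 3 genes of highest Pearson r over the 24 libraries are named, passing over predicted genes. Alternatives were relative log expression factors, no filter, DESeq2 1.42.0, only the groups compared, a replicate block, wild type LPS replicates 1 and 2 left out, and each library left out.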

Additional observations from a re-analysis of the deposited data

Results flagged for a closer look

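Of 36 sets of 6 libraries, 1 for each transporter in each group, 2 held a library far from the others by Dixon's gap ratio. Chance flags about 1 in 20 such sets. Slc2a1 read 60.2 CPM in wild type PBS replicate 1, against 70.1 to 75.2 CPM in the other 5 libraries, a gap of 0.658 of the range where 0.625 is critical. Without that library, Slc2a1 was lower in knockout than in wild type mice after PBS (adjusted p = 0.0225, edgeR). Slc16a1 read 22.6 CPM in knockout PBS replicate 5, against 29.0 to 31.9 CPM in the other 5 libraries, a gap of 0.689 of the range. Without it, the LPS call of Slc16a1 in knockout was lost (adjusted p = 0.0618, edgeR).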

How the results depend on the processing

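With single libraries left out, the transporters called higher with LPS numbered 6 to 8 in knockout and 8 to 8 in wild type. Those lower in knockout against wild type numbered 0 to 1 after PBS and 1 to 3 after LPS, where the count was 1 without knockout LPS replicate 3, knockout LPS replicate 4 or wild type LPS replicate 4. The difference of LPS changes gave 0 to 0. After PBS, 1 transporter was lower in knockout with no filter on low counts and with only the groups compared, and 1 had a lower LPS change in knockout with no filter (Slc16a1, adjusted p = 0.0124, edgeR). After LPS, 4 were lower in knockout with no filter, and 2 with only the groups compared or without wild type LPS replicates 1 and 2. DESeq2 and no filter each gave 7 transporters higher with LPS in knockout. The fold change of Mfsd2a with LPS in wild type turned to −0.0083 with no filter and −0.074 without both libraries, and ran from −0.028 to 0.10 over single libraries left out. The difference of LPS changes of Slc2a1 turned to 0.00068 and 0.084 under the same settings and ran from −0.044 to 0.027. Abcg2 in knockout against wild type after LPS ran from −0.019 to 0.030. Of all values and calls of single transporters under alternatives, 833 kept direction and side of the threshold, 27 lost the call, 6 gained it and 19 turned direction. The causes were not tested.

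Replicate numbers are shared between groups, and nothing in the labels ties a number to a litter, batch or day. Of same-numbered pairs, 2 of 36 correlated over 0.1 (median 0.03), against 1 of 180 different-numbered pairs (median −0.0029), and 11 of 24 libraries ran closest to their own number. The animals were treated as unpaired because the labels give no pairing. Most same-numbered pairs were under 0.1, but that cutoff cannot tell a weak link from none. Same-numbered pairs had the higher median and the larger share over 0.1, so these values do not show that the numbers are unrelated. Each library was set against 6 numbers, and how many libraries would run closest to their own number by chance was not tested. Calls made without the number in the fit take no account of such a link. With the number as a replicate block, 4 transporters were lower in knockout after LPS, Slco1a4 among them (adjusted p = 0.0311, edgeR).

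Over all genes, calls between genotypes after PBS numbered 19, against 88 with no filter, 33 with only the groups compared and 39 with the block. After LPS they numbered 151, against 293 with no filter, 273 with the block and 561 without wild type LPS replicates 1 and 2. The difference of LPS changes gave 1 call, against 67 with no filter, 30 by DESeq2, 8 with the block and 249 without those libraries.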

Other observations

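The 3 genes whose levels ran most like each transporter over the 24 libraries are given by Pearson's r of log2 CPM, with no test; all points share the LPS and genotype groups. Slc2a1 ran most like Igfbp7 (0.968), Slco2b1 (0.963) and Vwf (0.96), the clotting factor carrier of endothelial cells. Abcb1a ran most like Adgrl4 (0.975), an endothelial adhesion receptor, Eng (0.973) and the complement gene C4b (0.967). Slco1a4 ran most like Eng (0.959), Clu (0.95), a secreted chaperone made by astrocytes, and Ptprb (0.948), an endothelial phosphatase. Slco1c1 ran most like Egfl7 (0.937), Bsg (0.937) and Cldn5 (0.935), and Abcg2 like Adgrf5 (0.921), Apbb1ip (0.911) and Mrc1 (0.907), a mannose receptor of macrophages. Slc7a5 ran most like Ctsa (0.975), Msn (0.969) and Grn (0.965), and Slc16a1 like Ctsb (0.887), Ucp2 (0.882) and Pla2g4a (0.861), of which Ctsa, Grn and Ctsb encode lysosomal proteins. Slc3a2 ran most like Tmsb4x (0.905), an actin-binding peptide, Irf5 (0.905), an interferon regulatory factor, and S100a1 (0.901). For Mfsd2a a predicted gene ran closest, and the next were Nt5e (0.691), Mzt2 (0.685) and Man2c1 (0.681).

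Within groups the transporters varied largely apart from each other. After group means were removed, the 36 pairs of transporters had r from −0.265 to 0.369 over the 24 libraries, with a median of 0.111 and 24 positive. Against the summed endothelial genes, r ran from −0.486 for Slc2a1 to 0.486 for Slco1c1. These are descriptions of libraries that share depth and scaling.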
